A study of Mus musculus with 12 samples.

Results

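The genes described here are 10 transcripts known from neurons of the cerebellum: Cbln1, Cbln3, Neurod1, Zic1 and Zic2 of granule cells, Rgs8, Pcp2, Pcp4 and Calb1 of Purkinje cells, and the homeobox gene Barhl2. They were chosen, out of 41388 genes counted, for their levels in brain cells captured as astrocytes against the cells that were not captured, and for how much they varied between captured libraries. The difference between the captured and uncaptured cells is therefore given as a description without a test, and tests are given only for the comparison of genotypes.

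All mice were on a C57BL/6 background and carried floxed alleles of Bmal1 (Bmal1 fl/fl), the gene of a core transcription factor of the circadian clock, listed in the files as Arntl. Mice labelled KO also carried Aldh1l1-CreERT2, a tamoxifen-dependent Cre recombinase driven from an astrocyte promoter, and mice labelled WT were Cre-negative. Both received tamoxifen by gavage, at 2 mg per mouse per day for 5 days, when they were 2 months old, and brains were taken at 20 months. The controls thus shared the floxed alleles and the tamoxifen, and lacked the Cre. Brains were dissociated with collagenase, and cells that bound magnetic beads against ACSA-2, an astrocyte surface antigen, made the captured libraries: 4 labelled KO (mice 60, 62, 73 and 132) and 4 labelled WT (mice 56, 57, 64 and 78). The unbound cells, called the flowthrough, were also sequenced from 2 KO mice (60 and 132) and 2 WT mice (56 and 64), so that 4 mice gave both fractions. The labels do not name a brain region for any library.

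Granule cells are the small excitatory neurons of the cerebellar cortex, and their axons, the parallel fibres, make synapses on the dendrites of Purkinje cells, the inhibitory output neurons of that cortex. Cerebellin 1, made by granule cells, is released at these synapses and links their presynaptic and postsynaptic sides. Neither cell type is an astrocyte, and neither is the cell in which the Cre of these mice is designed to act.

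Libraries held 38691406 to 51551942 counts in genes, so that 3 counts, the least taken here as detected, corresponded to 0.0582 to 0.0775 counts scaled to a library of 1000000 (CPM). Summed over a list of 12 astrocyte genes, the same measure per kilobase of exon (RPKM) ranged from 3009 to 5724 in captured libraries and from 781.9 to 2031 in flowthrough. Atp1b2, the gene of the ACSA-2 antigen, had 342.5 ± 72.1 RPKM in captured libraries (SD, n = 8) and 96.2 ± 23.9 in flowthrough (SD, n = 4). A list of 10 microglial genes summed to 418 to 2529 RPKM in captured and 7881 to 12760 in flowthrough libraries. Captured libraries labelled KO had 2.97, 3.30, 4.67 and 4.38 RPKM over the whole Arntl gene, above all 4 labelled WT, at 2.72, 2.13, 1.93 and 2.57. The difference did not pass the test (log2 difference 0.66 ± 0.19 SE, adjusted p = 0.473 by edgeR's quasi-likelihood test). Gene-level counts do not separate the floxed part from the rest of the transcript, so they cannot check the labels. The genotypes are written as the labels give them. Captured libraries of mice 73 and 78 held Xist, the transcript of the inactive X chromosome, at female-type levels, and the other 10 libraries did not.

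All 10 genes were detected above 3 counts in each of the 12 libraries, and all passed the filter on low counts in every comparison. Per length, in captured libraries, Pcp2 had the highest level at 115.4 ± 32.5 RPKM (SD, n = 8), followed by Pcp4 at 57.4 ± 10.9. Neurod1 (11.04 ± 3.95), Rgs8 (9.85 ± 1.95), Calb1 (7.70 ± 3.76), Cbln1 (5.93 ± 1.90) and Cbln3 (5.40 ± 1.70) came next on the same RPKM scale, and neighbours among these 5 differed by less than the larger of their SDs. Zic1 had 3.15 ± 0.44, Zic2 1.42 ± 0.36 and Barhl2 0.158 ± 0.077 RPKM. The order therefore fell into a Purkinje pair of abundant transcripts, 5 transcripts at similar levels, and 3 transcription factors at the bottom.

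Cbln1 and Cbln3, which code for secreted proteins of the cerebellin family that assemble together, were the members with the widest gap between fractions. Cbln1 (ENSMUSG00000031654, chr8:87468854-87472592, minus strand, 3 exon intervals, GRCm38) had 21.0, 16.8, 8.53 and 15.6 CPM, scaled by the trimmed mean of M values (TMM), in the captured libraries of KO mice 60, 62, 73 and 132. It had 9.97, 20.8, 6.41 and 18.8 CPM in those of WT mice 56, 57, 64 and 78, against 3.50 and 1.96 CPM in the flowthrough of KO mice 60 and 132 and 1.92 and 0.989 CPM in that of WT mice 56 and 64. Every captured library was above every flowthrough library, and WT 64 and KO 73 were the low ones among the captured. The ratio of the fraction means was 7.03.

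Cbln3 (ENSMUSG00000040380, chr14:55878920-55884256, minus strand), restricted in the brain largely to granule cells, had 38.6, 31.0, 16.5 and 26.0 CPM in the captured KO libraries of mice 60, 62, 73 and 132. In captured WT libraries of mice 56, 57, 64 and 78 it had 19.8, 40.4, 12.1 and 32.1 CPM, and in flowthrough 5.79 and 1.96 (KO 60 and 132) and 2.06 and 1.48 CPM (WT 56 and 64). The same captured libraries were low as for Cbln1, the flowthrough of KO 60 stood above the other 3, and the fractions did not overlap. The ratio of means was 9.58, the highest of the 10 genes.

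Neurod1 (ENSMUSG00000034701, chr2:79452521-79456751, minus strand), a basic helix-loop-helix transcription factor needed for granule cell survival and differentiation, had 46.7, 42.5, 13.3 and 31.9 CPM in captured KO and 27.5, 43.6, 13.6 and 37.2 CPM in captured WT libraries, with mice in the order above. Its flowthrough values were 8.97, 5.05, 4.42 and 2.43 CPM in KO 60, KO 132, WT 56 and WT 64. The fractions again did not overlap, at a ratio of means of 6.14, and KO 73 and WT 64 were again the lowest captured libraries. Neurod1 is also a gene of pineal and retinal cells; among genes of those cells, Crx had 2.02 RPKM in captured KO 73 and 1.32 in captured WT 56 and 0.143 to 0.589 in the other 6 captured libraries, and its part in the Neurod1 level was not tested. A stretch of 201 of the 2729 exon bases of Neurod1 (7.37%) is also annotated in Cerkl on the same strand.

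Zic1 and Zic2, zinc finger transcription factors of the granule lineage that other dorsal neurons also make, differed less between fractions. Zic1 (ENSMUSG00000032368, chr9:91358058-91365810, minus strand) ranged from 13.8 CPM in captured KO 73 to 23.6 in captured WT 57, with a median of 18.98 over the 8 captured libraries, and from 6.25 to 9.43 CPM in flowthrough. The fractions did not overlap, and the ratio of means was 2.32. Zic2 (ENSMUSG00000061524, chr14:122475435-122479852, plus strand) had 1.87 to 5.24 CPM in captured libraries (median 4.62) and 3.05 to 4.12 in flowthrough, and here the fractions overlapped, with captured KO 62 below all 4 flowthrough libraries. The ratio of means for Zic2 was 1.21, the smallest of the 10.

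Rgs8 and Pcp2 are modulators of G protein signalling that are strongly made in Purkinje cells. Rgs8 (ENSMUSG00000042671, chr1:153653025-153700323, plus strand) had 128.9, 109.5, 69.1 and 120.6 CPM in captured KO libraries of mice 60, 62, 73 and 132 and 60.5, 117.0, 80.7 and 112.7 in captured WT libraries of mice 56, 57, 64 and 78. Flowthrough held 36.4 and 17.8 CPM in KO 60 and 132, and 10.4 and 9.28 CPM in WT 56 and 64. The fractions did not overlap, at a ratio of means of 5.41, and both KO flowthrough libraries were above both WT ones.

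Pcp2 (ENSMUSG00000004630, chr8:3623371-3625545, minus strand), also called L7, had 291.3, 205.5, 143.3 and 339.6 CPM in captured KO and 130.2, 236.4, 199.8 and 224.2 CPM in captured WT libraries, in the same order of mice. Flowthrough held 86.5 and 54.9 CPM (KO 60 and 132) and 32.9 and 51.3 CPM (WT 56 and 64). No flowthrough library reached the lowest captured one, WT 56, and the ratio of means was 3.93. Of the 1828 exon bases of Pcp2, 861 (47.1%) are also annotated on the opposite strand in Pet100, a mitochondrial assembly factor. Without a stated strand setting, reads in that stretch cannot be assigned with certainty; Pet100 itself had 1195 to 1930 counts in all 12 libraries, at 30.3 ± 2.54 RPKM in captured and 29.7 ± 3.48 in flowthrough.

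Pcp4 and Calb1 bind calmodulin and calcium, and forebrain neurons make both as well. Pcp4 (ENSMUSG00000090223, chr16:96467606-96525793, plus strand) had 24.1 to 45.6 CPM in captured libraries (median 42.0) and 12.4 to 23.5 in flowthrough. The fractions only just did not overlap, since captured KO 73, at 24.1 CPM, lay beside flowthrough KO 60, at 23.5, and the ratio of means was 2.36. On the same strand, 243 of its 641 exon bases (37.9%) are also annotated in Igsf5, which had 27 to 125 counts in captured and 216 to 384 in flowthrough libraries. Calb1 (ENSMUSG00000028222, chr4:15881264-15908064, plus strand) had 16.02 to 66.24 CPM in captured libraries (median 39.2) and 11.5 to 24.3 in flowthrough. Captured KO 62, at 16.02, and WT 56, at 23.9, lay within the flowthrough range, and captured KO 73, which was low for Cbln1, Neurod1 and Rgs8, was the highest for Calb1.

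Barhl2 (ENSMUSG00000034384, chr5:106452523-106458166, minus strand), a homeobox factor of retinal, spinal and other neurons, whose paralogue Barhl1 marks granule cell precursors, was near the limit of counting. Captured libraries held 12, 12, 13 and 38 counts in KO mice 60, 62, 73 and 132 and 15, 16, 9 and 20 counts in WT mice 56, 57, 64 and 78. Flowthrough held 5, 6, 4 and 15 counts in KO 60, KO 132, WT 56 and WT 64. Captured KO 132 stood above all others, and flowthrough WT 64 had more counts than 4 of the 8 captured libraries, so the fractions overlapped. The ratio of mean CPM, 2.68, rests on these few counts.

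In all, the lowest captured library was above the highest flowthrough library for 7 of the 10 genes, and not for Zic2, Calb1 and Barhl2. Over all 20997 genes tested, 49.2% were called, 24.8% as higher in captured than in flowthrough libraries and 24.4% as lower (edgeR, adjusted p under 0.05). The share of all genes whose fractions do not overlap is not given here, and being called is another measure. Since the 10 genes were chosen on this difference, nothing is read from their count. In bulk RNA, fewer cells of a type and less RNA per cell cannot be told apart.

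**Figure D1:**
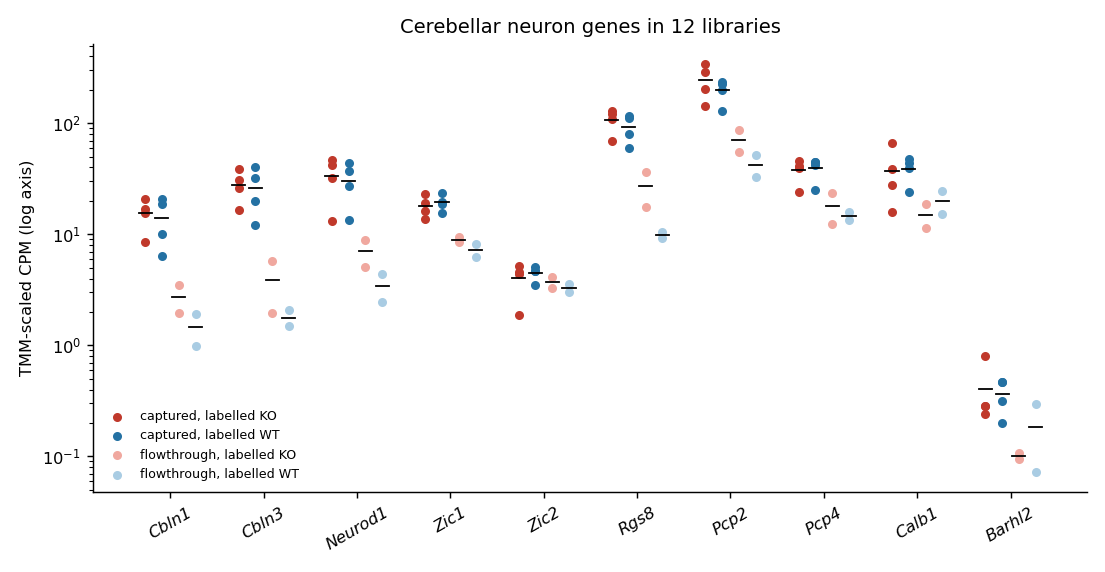
TMM-scaled CPM, on a log axis, of the 10 genes in each of the 12 libraries. Each point is 1 library, coloured by fraction and label, and each short bar is the mean of its group; Cbln1, Cbln3, Neurod1 and Rgs8 show gaps between captured and flowthrough points, while Zic2, Calb1 and Barhl2 overlap.

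The 4 mice with both fractions gave the difference within 1 animal, on the log2 CPM scale. For Cbln3 it was 2.73, 3.70, 3.24 and 2.99 in mice 60, 132, 56 and 64, for Cbln1 2.57, 2.96, 2.35 and 2.65, and for Neurod1 2.38, 2.65, 2.63 and 2.46. Neurod1 thus varied least between mice among these 3, with an SD of 0.13. Rgs8 differed by 1.82, 2.76, 2.53 and 3.11 and Pcp2 by 1.75, 2.63, 1.99 and 1.96 in the same mice. For these 5 genes and for Zic1 and Pcp4 the captured library was the higher in 4 of 4 mice. The share of all genes with that pattern is not given here, so nothing is read from this count. Calb1 was at -0.03 in mouse 56 and at 1.74 in mouse 132, Zic2 between -0.01 and 0.60, and Barhl2 at -0.48 in mouse 64 and 2.49 in mouse 132. The median of the 10 genes was 1.5, 2.56, 1.81 and 1.84 in mice 60, 132, 56 and 64, beside a median over all tested genes of -0.02, -0.04, -0.02 and 0.

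**Figure D2:**
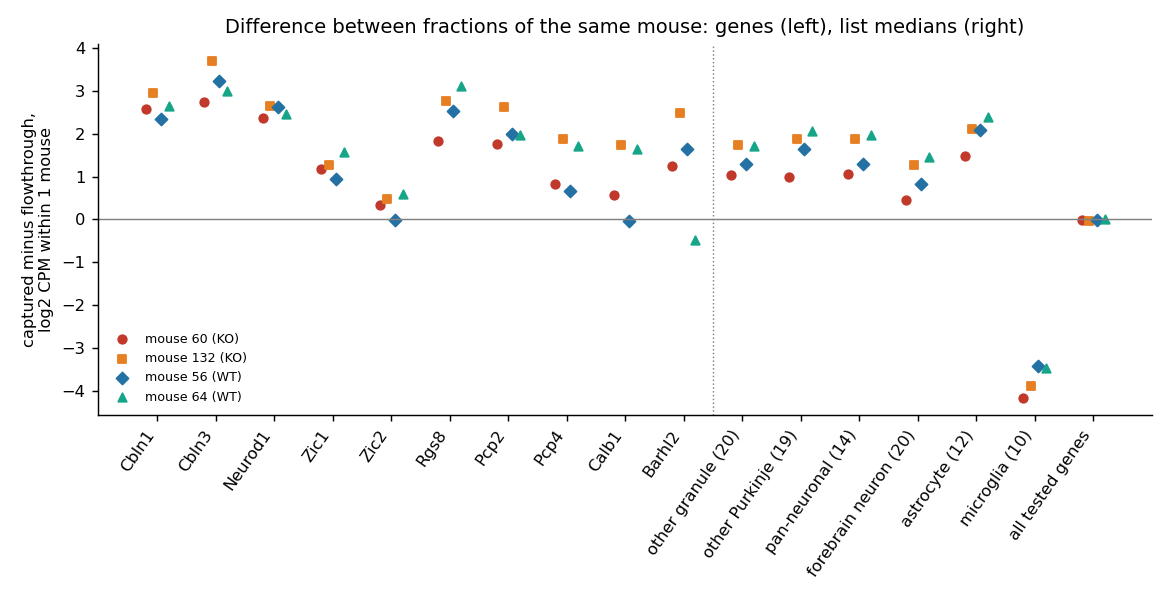
Captured minus flowthrough log2 CPM within each of the 4 mice with both fractions. The 10 genes are to the left of the dotted line, and the medians of 6 gene lists (number of genes in brackets) and of all tested genes are to the right; Cbln1, Cbln3 and Neurod1 lie above 2 in all 4 mice and the microglia list lies below -3.

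Other genes of the same cells were then taken from lists compiled for these cell types. All gene lists were chosen with earlier results of these data known, so their calls are a description and no independent support. The fit behind these calls has no mouse term, although fractions share mice. Of 20 further granule cell genes, 15 were called higher and 1 lower in captured libraries (edgeR, adjusted p under 0.05), with a median log2 difference of 1.33 beside 0.00 over all genes tested. Among all genes tested, 24.8% were called higher and 24.4% lower. Gabra6, a GABA-A receptor subunit typical of mature granule cells, was higher by 3.19 ± 0.48 (SE; adjusted p = 2.92e-04). It stood at 9.24 ± 3.42 RPKM in captured (SD, n = 8) and 1.24 ± 0.85 in flowthrough libraries (SD, n = 4). Fat2, an atypical cadherin of granule cells, was higher by 2.79 ± 0.51 and Grin2c, an NMDA receptor subunit, by 2.31 ± 0.32. The median was 1.93 for 12 astrocyte genes, and the part of other cell types in the levels of these granule genes was not tested. Zic4 (0.29) and Zic5 (0.25) did not pass the test, nor did Barhl1, which was at 0.054 ± 0.039 RPKM in captured libraries. The 1 gene called lower, Il16 (-2.78 ± 0.18), codes for a cytokine precursor that leukocytes also make.

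Of 20 further Purkinje cell genes, 19 could be tested, and 17 were called higher and 0 lower in captured libraries, with a median log2 difference of 1.60. Car8, a regulator of the IP3 receptor, was higher by 2.44 ± 0.28 (SE) and Pvalb, a calcium buffer also of interneurons, by 2.14 ± 0.24. Slc1a6, the Purkinje cell glutamate transporter, was higher by 2.42 ± 0.25, and Ppp1r17, a phosphatase inhibitor, by 2.45 ± 0.29. Foxp2 (0.10) and Pcp4l1 (-0.14) did not pass the test. Skor2, a corepressor found in Purkinje cells, was too low to test, with 0 to 4 counts in captured and 0 to 1 in flowthrough libraries. Listed markers of both cell types were thus present in the captured libraries, some of them at very low counts. Among the latter were Skor2, Barhl1 (0 to 19 counts), Kcnk9 (3 to 14) and Lhx5 (4 to 28).

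Other cerebellins and the partners of this family at the synapse were called higher in captured libraries for 7 of 7 genes, with a median log2 difference of 1.77. Cbln4, another cerebellin, was higher by 2.44 ± 0.51 (SE; adjusted p = 0.00233 by edgeR) and Cbln2 by 1.51 ± 0.35, and the presynaptic genes Nrxn2 and Nrxn3 by 1.43 ± 0.22 and 1.64 ± 0.23. Of 11 tested genes of cerebellar interneurons and unipolar brush cells, 7 were called higher and 2 lower, the latter being Prkcd (-1.17 ± 0.19) and Lmx1a (-2.75 ± 0.45), which also mark other cells. Of 11 genes of Bergmann glia, the astrocytes of the Purkinje cell layer, 10 were called higher, with a median of 2.14; several of them are made by other astrocytes too.

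Neurons in general and neurons of other regions moved with the cerebellar genes. All 14 pan-neuronal genes were called higher in captured libraries, with a median log2 difference of 1.62, and their summed level was 624 to 1115 RPKM in captured and 225 to 550 in flowthrough libraries. Of 20 forebrain neuron genes, 14 were called higher and 1 lower, with a median of 1.17; without the flowthrough library of KO 132, 9 were called higher. The regional factors En1 and En2, of the midbrain and hindbrain, were higher by 2.05 ± 0.64 and 2.15 ± 0.64 (SE). Of the 6 tested midbrain and hindbrain factors, 4 were called higher and 1 lower, and 1 was called higher without the flowthrough of KO 60 or of WT 64. The astrocyte list was called higher for 12 of 12 genes (median 1.93), and the microglia and endothelial lists were called lower for 10 of 10 genes each (medians -3.55 and -1.14). The part of each of these cell types in the levels of the 10 genes was not tested.

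Set against the mean log2 level of the 14 pan-neuronal genes in the same library, the cerebellar genes did not all differ in the same direction between fractions. Cbln3 lay at -2.41 ± 0.40 in captured (SD, n = 8) and -4.20 ± 0.27 in flowthrough libraries (SD, n = 4), and Cbln1 at -3.29 ± 0.41 and -4.55 ± 0.29. Rgs8 lay at -0.47 ± 0.21 and -1.52 ± 0.44. For these 3 genes all 8 captured libraries stayed above all 4 flowthrough libraries on this relative scale. Neurod1 and Pcp2 were higher relative to pan-neuronal genes in 4 of 4 mice, by 0.52 to 1.37 and by 0.02 to 0.87, although their fractions overlapped. Zic2 was lower in 4 of 4 mice, by -0.66 to -1.34, and Calb1 too, by -0.01 to -1.36. Pcp4 was higher only in mouse 132 and Zic1 only in mouse 60. The cerebellar genes were chosen on the difference between fractions, and the share of all genes with these patterns is not given here. Nothing is therefore read from these counts of genes, libraries and mice.

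**Figure D3:**
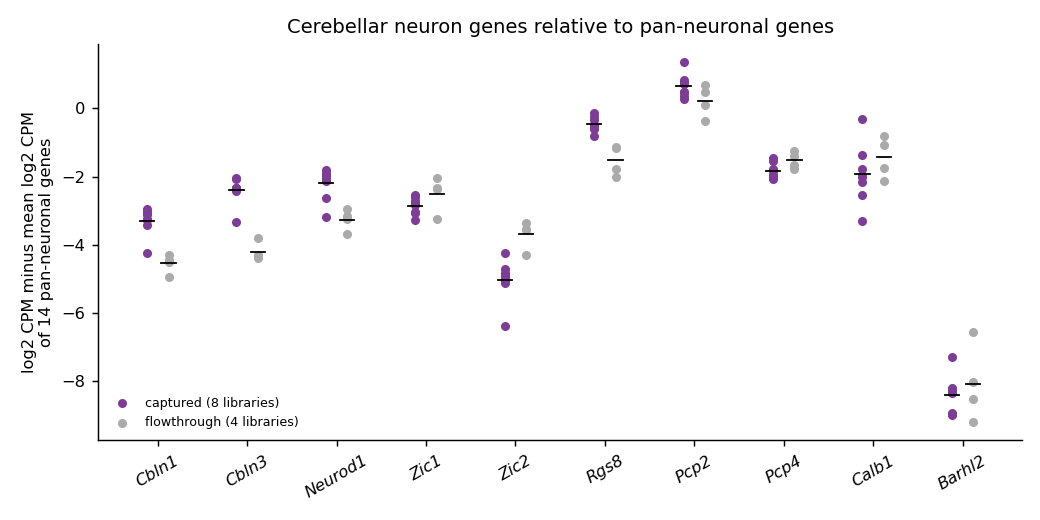
Log2 CPM of each of the 10 genes minus the mean log2 CPM of 14 pan-neuronal genes in the same library, for 8 captured and 4 flowthrough libraries. Points are libraries and short bars are means; Cbln1, Cbln3 and Rgs8 stay apart between the fractions, and Zic2 lies lower in captured libraries.

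Among the 8 captured libraries the 10 genes varied more than the typical gene by their median, though not each of them did. Their SD of log2 CPM ran from 0.26 for Zic1 to 0.73 for Neurod1, with a median of 0.53 beside 0.35 over 18527 tested genes. Zic1 thus varied less than the typical gene, and Pcp4, at 0.37, about as much. The 10 genes were partly chosen for this spread, so the comparison is a description. Cbln1 and Cbln3 kept an almost fixed ratio, whose log2 value had an SD of 0.088 over the 8 libraries (Pearson r = 0.991). The log2 ratio of Rgs8 to Pcp2 had an SD of 0.19, and that of Cbln3 to Neurod1 0.24. Calb1 did not follow them: its log2 ratio to Neurod1 had an SD of 1.24. These relations rest on 8 libraries that share 1 protocol, and no p-value is given for them.

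Groups of these genes, formed after their spread was seen, were low in partly different libraries. The mean of Cbln1, Cbln3 and Neurod1, each centred over the 8 libraries, was lowest in WT 64 at -1.08 and in KO 73 at -0.79. In WT 64 the mean of Rgs8, Pcp2 and Pcp4 was at -0.03, that of Zic1 and Zic2 at 0.10, that of all 5 granule members at -0.60 and that of the 20 other granule genes at -0.23. Rgs8, Pcp2 and Pcp4 were lowest in WT 56 at -0.64 and in KO 73 at -0.55, and in WT 56 Cbln1, Cbln3 and Neurod1 were at -0.29. Calb1, in neither mean, was highest in KO 73. KO 73, low for both means, was the lowest captured library for the pan-neuronal list (-0.68) and for the astrocyte list (-0.54), and the highest for the microglial list (1.49). WT 64 was at -0.12 for the pan-neuronal list. The part of these cell types in the levels was not tested.

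**Figure D4:**
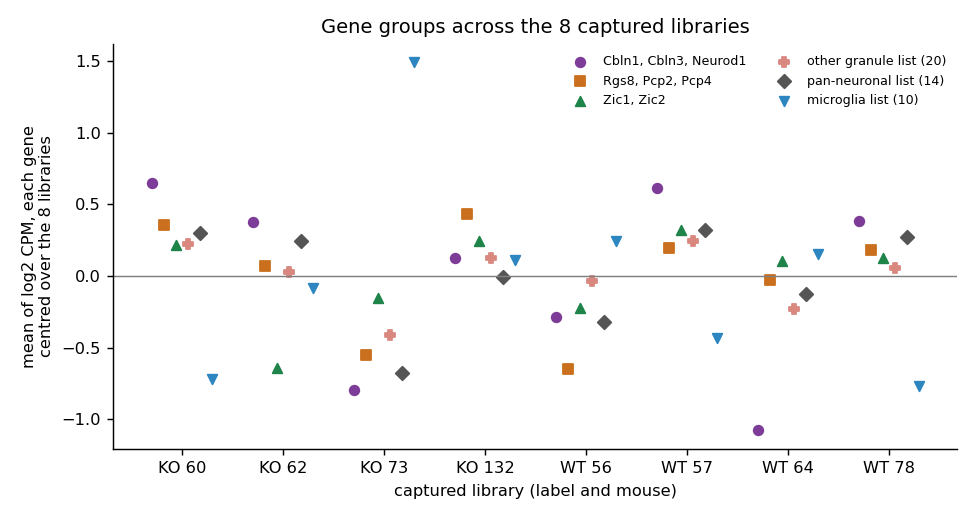
Mean log2 CPM of gene groups in each of the 8 captured libraries, each gene centred on its mean over those libraries. In WT 64 the mean of Cbln1, Cbln3 and Neurod1 is at -1.08, that of Zic1 and Zic2 at 0.10, that of Rgs8, Pcp2 and Pcp4 at -0.03 and that of the 20 other granule genes at -0.23, and the microglia list peaks at 1.49 in KO 73.

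Genes whose profile over the 8 captured libraries was most like the mean of the 5 granule genes were looked for among 3132 expressed and variable genes. The highest Pearson r was 0.982 for Castor2, a gene of the mTORC1 pathway, followed by Gabra6 at 0.970. Rps6ka2 (0.967), Grm4 (0.967), a metabotropic glutamate receptor of parallel fibres, Zfp609 (0.966), Traf3 (0.965), Cnr1 (0.964), the cannabinoid receptor of those fibres, and Gpd1l (0.962) came next. In all, 113 of the genes searched (3.61%) had an r of at least 0.9. For the mean of the 4 Purkinje genes, 1 gene (0.0319%) reached that, Ctnnb1 at 0.917, which codes for beta-catenin, and Eif5a2 was next at 0.889. The Purkinje mean includes Calb1, whose r with Rgs8, Pcp2 and Pcp4 was -0.196, -0.054 and -0.100, so the counts for the 2 means are not compared.

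The sequence upstream of the start site was then read for the genes that moved together and for the most abundant one. RefSeq (GRCm38.p6) promoter entries matched 7 of the 10 genes, not Cbln1, Calb1 and Zic2, and the 250 bases before the start were searched on both strands for 3 motifs. The clock E-box, read by the dimer of BMAL1 and CLOCK, was spelled CACGTG. The neurogenic E-box, read by helix-loop-helix factors such as NEUROD1, was spelled CAGATG. The nuclear receptor half-site, also read by RORA, was spelled AGGTCA. Capitals below mark a match. Cbln3 (chr14:55884257-55884506, minus strand) and Neurod1 (chr2:79456637-79456886, minus strand) are shown as the granule pair, Pcp2 (chr8:3625548-3625797, minus strand, the most upstream of its 4 entries) as the Purkinje gene, and Zic1 (chr9:91365769-91366018, minus strand) as the gene with a clock E-box.
Cbln3: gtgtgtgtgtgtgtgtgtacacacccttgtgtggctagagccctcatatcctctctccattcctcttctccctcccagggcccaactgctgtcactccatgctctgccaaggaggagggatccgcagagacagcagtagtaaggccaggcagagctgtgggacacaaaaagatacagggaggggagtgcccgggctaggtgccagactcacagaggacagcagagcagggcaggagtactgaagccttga
Neurod1: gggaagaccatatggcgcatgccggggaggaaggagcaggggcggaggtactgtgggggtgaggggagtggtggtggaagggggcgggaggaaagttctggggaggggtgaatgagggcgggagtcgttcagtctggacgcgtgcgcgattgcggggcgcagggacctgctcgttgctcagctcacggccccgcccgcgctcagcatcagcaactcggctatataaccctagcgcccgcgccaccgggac
Pcp2: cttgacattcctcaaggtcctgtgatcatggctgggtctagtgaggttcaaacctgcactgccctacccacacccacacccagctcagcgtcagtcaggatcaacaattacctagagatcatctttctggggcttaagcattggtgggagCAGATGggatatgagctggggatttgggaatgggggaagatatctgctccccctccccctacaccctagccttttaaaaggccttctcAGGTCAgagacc
Zic1: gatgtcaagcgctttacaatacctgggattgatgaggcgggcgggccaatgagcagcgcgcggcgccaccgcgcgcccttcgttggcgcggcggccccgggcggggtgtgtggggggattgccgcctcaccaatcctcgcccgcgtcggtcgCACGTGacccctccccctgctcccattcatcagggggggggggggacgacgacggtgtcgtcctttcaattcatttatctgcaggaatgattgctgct
The Cbln3 and Neurod1 windows held none of the 3 motifs. The Pcp2 window held 1 neurogenic E-box and 1 half-site, and the Zic1 window held 1 clock E-box and neither of the others. Of 32851 promoter windows of the same length, 6.02% held the clock E-box, 14.44% the neurogenic E-box and 14.02% the half-site. The clock E-box was in no window of Rgs8, Pcp2, Pcp4 or Barhl2. The half-site was also in the Pcp4 window and in the Rgs8 window at chr1:153665423-153665672. Further Pcp2 windows, at chr8:3625473-3625722 and chr8:3625037-3625286, held it too. The former of these overlaps the window shown and also held the neurogenic E-box.

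None of the 10 genes passed the test between libraries labelled KO and WT, labels that the whole-gene Arntl counts could not check. In captured cells, 0 of 10 were called by edgeR at an adjusted p under 0.05, where 0.232% of 18527 genes were called (0.146% higher and 0.0864% lower in KO), and 0 of 10 had an unadjusted p under 0.05; DESeq2 and limma-voom also called 0. Cbln1 was at 15.0 ± 5.02 CPM in KO and 13.5 ± 6.59 in WT captured libraries, scaled among the captured libraries (SD, n = 4 each), a log2 difference of 0.15 ± 0.38 (SE; edgeR adjusted p = 0.996). For Neurod1 the difference was 0.15 ± 0.42, for Cbln3 0.11 ± 0.37, for Zic1 -0.09 ± 0.19 and for Zic2 -0.14 ± 0.31. Pcp2 was at 237.5 ± 85.1 and 190.4 ± 45.0 CPM (0.32 ± 0.28, adjusted p = 0.995), Rgs8 differed by 0.22 ± 0.25, Pcp4 by -0.05 ± 0.24, Calb1 by -0.05 ± 0.39 and Barhl2 by 0.17 ± 0.52. The labels overlapped in each of these genes, and the missed threshold does not show that their levels were alike.

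In flowthrough, with 2 libraries a label, 0 of 10 were called (edgeR; 0.00476% of 20997 genes were), and DESeq2 and limma-voom called 0. Rgs8 had the clearest difference, at 1.46 ± 0.40 on the log2 scale (SE; edgeR adjusted p = 1, unadjusted p = 0.0036), and was the only one of the 10 with an unadjusted p under 0.05. Cbln3 was at 1.12 ± 0.61, Neurod1 at 1.03 ± 0.62, Cbln1 at 0.91 ± 0.59 and Pcp2 at 0.75 ± 0.41. The flowthrough of KO 60 held the highest level of all 5 of these genes and also the highest summed pan-neuronal level, 549.6 RPKM beside 224.8 to 294.2 in the other 3 libraries. It also had the highest summed astrocyte level (2031 beside 781.9 to 1090 RPKM), forebrain neuron level (307.8 beside 116.5 to 150.8) and oligodendrocyte level (4094 beside 1993 to 2315), and the lowest microglial level (7881 beside 10060 to 12760); their part in these differences was not tested. Without this library, Rgs8 was at 0.85, Neurod1 at 0.56, Cbln1 at 0.43, Pcp2 at 0.38 and Cbln3 at 0.15. All 14 pan-neuronal genes were higher in KO than in WT flowthrough, with a median log2 difference of 0.69, and none of the 14 was called. On simulated counts, the flowthrough fit called 4.04% of genes given a log2 change of 1. A missed threshold there does not show that levels were alike.

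The difference of the genotype effect between fractions was also tested, and 0 of 10 were called (edgeR; 0.00% of genes were), with 1 unadjusted p under 0.05 among them and 0 called by DESeq2 or limma-voom. That was Rgs8, at -1.25 ± 0.48 (SE; edgeR adjusted p = 0.934, unadjusted p = 0.024). The other 9 genes lay between -1.02 ± 0.73 for Cbln3 and 0.99 ± 1.03 for Barhl2. That fit does not use that fractions share mice. With mouse as a replicate block, on the 4 mice with both fractions, Rgs8 was at -0.552 and kept its sign. Cbln1 at 0.237, Cbln3 at 0.0432, Zic2 at 0.0935, Pcp2 at 0.202 and Pcp4 at 0.14 changed sign. On the same 4 mice without the block, Cbln1 (0.234), Zic2 (0.0787), Pcp2 (0.171) and Pcp4 (0.0197) also had the changed sign. None was called with the block either.

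**Figure D5:**
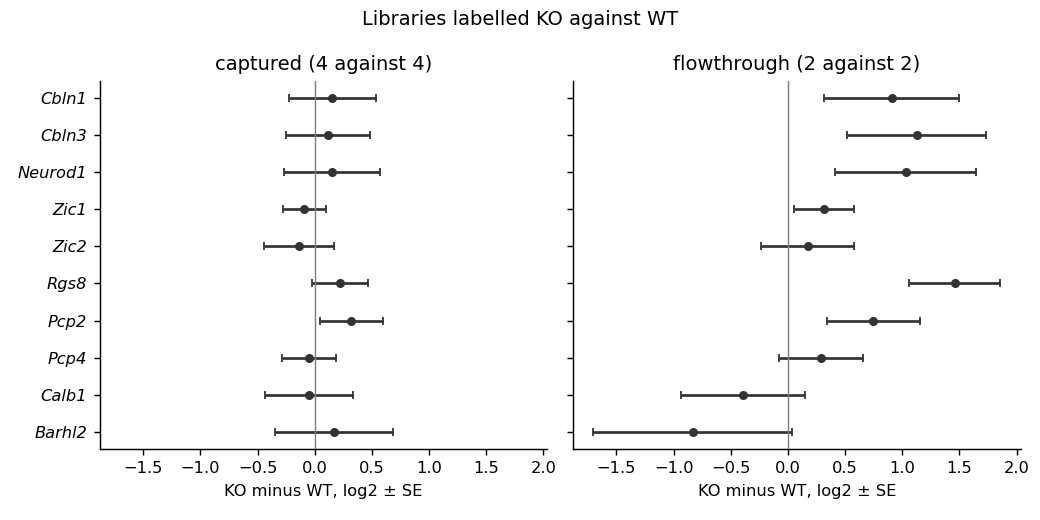
KO minus WT log2 differences with standard errors for the 10 genes, in captured libraries (left) and flowthrough (right). The points in captured libraries lie between -0.14 and 0.32, and in flowthrough Rgs8 lies farthest from 0 at 1.46; none passed the test.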

How the data were processed

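RNA from 12 libraries of 8 mice was prepared with a SMARTer kit, per the labels' protocols. The deposited values are counts, depth-scaled counts (CPM) and counts scaled by depth and exon length (RPKM) per gene, made by the authors with bcl2fastq, STAR 2.5.1a and Subread featureCounts 1.4.6-p5 on GRCm38, per the submitters' processing notes; the strand setting is not given in the sources used here. Counts were scaled by TMM and fitted with edgeR 4.0.16 (quasi-likelihood test, R 4.3.3, filterByExpr, Benjamini-Hochberg adjustment over all genes, threshold 0.05): captured KO against WT on 8 libraries, and the flowthrough, fraction and interaction comparisons on all 12 with 4 group means. DESeq2 1.42.0 and limma 3.58.1 were alternatives. Fits were tested on simulated counts with known changes. Of genes given a log2 change of 1, the captured KO against WT fit called 33.7% and the flowthrough fit 4.04%. At a log2 change of 2 they called 82.4% and 56.4%. The 10 genes and the gene lists were chosen with earlier results of these data known. Of 193 listed genes, 192 matched a symbol. Neighbouring genes in profile were those with the highest Pearson r to the mean of a gene group, among genes with mean log2 CPM of at least 3 and SD of at least 0.3.

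Captured and flowthrough libraries with the same number come from the same mouse, so they are paired by design. Deviations from the group means correlated at 0.352, -0.00664, 0.155 and 0.251 in mice 60, 132, 56 and 64. The captured KO against WT fit holds each mouse once, so its p-values measure the spread between mice. The flowthrough, fraction and interaction fits have no mouse term and pool the spread of both fractions. They treat both libraries of a mouse as independent, so their p-values do not measure the spread between mice alone. Promoter sequences are from RefSeq, and protein sequences were not used here. Values of a few listed genes are not reported here.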

Additional observations from a re-analysis of the deposited data

Results flagged for a closer look

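Each gene was examined in each captured label group of 4 libraries for a library far from the other 3, and 2 of 20 such groups held one; chance alone gives about 1 in 20 groups. Pcp4 stood at 24.45 CPM in captured WT 56, scaled among captured libraries, while the other 3 WT libraries held 40.66 to 43.16, so that its gap to the nearest was 0.866 of the range (limit 0.829). Barhl2 stood at 0.7784 CPM in captured KO 132, from 38 counts, while the other 3 KO libraries held 0.2364 to 0.2768, a gap of 0.926 of the range.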

How the results depend on the processing

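The alternatives were RLE size factors, library size only, no filter, a CPM of at least 1, DESeq2, limma-voom, sex type as a term, all 12 libraries in the captured comparison, the 4 mice with both fractions, a replicate block, each library left out, and, chosen after seeing the data, both female-type libraries left out. None of the 10 genes was called in either genotype comparison or in their difference under any of them; over 606 such values the lowest adjusted p was 0.185. The median captured minus flowthrough log2 difference of the 10 genes, 1.74, ranged from 1.55 to 2.13 with 1 library left out and was 1.56 with library size only, where the median of all genes moved from 0.00 to -0.14. With mouse as a replicate block it was 1.76, and the block changed no call of these genes.

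Several small genotype differences that passed no test changed sign. For captured KO minus WT, the ranges with 1 library left out were -0.0855 to 0.404 for Cbln1, -0.124 to 0.398 for Cbln3, -0.0924 to 0.416 for Neurod1, -0.224 to 0.0183 for Zic1, -0.292 to 0.0986 for Zic2, -0.208 to 0.115 for Pcp4, -0.489 to 0.203 for Calb1 and -0.408 to 0.352 for Barhl2. In flowthrough they were -0.247 to 0.679 for Pcp4 and -1.52 to 0.478 for Barhl2. For the difference between fractions they were -0.734 to 0.204 for Pcp4, -0.104 to 0.738 for Calb1 and -0.304 to 1.68 for Barhl2. Calb1 in captured cells was at 0.0454 with library size only. Without both female-type libraries, Zic1 and Pcp4 in captured cells were at 0.0256 and 0.187, and Calb1 in the difference between fractions at -0.0904. That difference on the 4 mice with both fractions was 0.234 for Cbln1, 0.0787 for Zic2, 0.171 for Pcp2 and 0.0197 for Pcp4, and with mouse as a replicate block 0.237 for Cbln1, 0.0432 for Cbln3, 0.0935 for Zic2, 0.202 for Pcp2 and 0.14 for Pcp4; the cause was not tested.

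Among the other listed genes, 1 was called in captured KO minus WT, Fabp7; the count was 2 with DESeq2, 0 with all 12 libraries, and 0 to 1 with 1 library left out, being 0 without KO 60, KO 62, KO 132, WT 57 or WT 64. Over all genes 43 were called there by edgeR, 183 by DESeq2, 28 with library size only, 26 with sex type as a term and 12 without KO 132. In flowthrough and in the difference between fractions edgeR called 1 and 0 of all genes, with 973 and 828 at an unadjusted p under 0.05, and DESeq2 called 23 and 8. At 4 to 38 counts, counting error limits Barhl2.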
